A study of Drosophila melanogaster with 6 samples.

Results

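The Turandot genes of Drosophila melanogaster form a family of 8, TotA, TotB, TotC, TotE, TotF, TotM, TotX and TotZ, and were followed through the fat body libraries of the series. The 8 were selected on their symbols, among 15682 genes in the table, and the family was taken up because the difference of TotA and TotC between the groups was already known. That difference is therefore given below as a description, and where the calls of a test are counted for the members nothing is read from them. Each Turandot gene was matched to its own FlyBase identifier. Of the 8, 4 had enough reads to be modelled (TotA, TotC, TotM and TotX, among 10398 modelled genes), 2 had a few reads (TotB and TotZ) and 2 had none (TotE and TotF).

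The libraries were made from dissected fat bodies of adult females aged 7 to 10 days, in 2 groups of 3. FB-Dp110DN flies carried a constitutive fat body GAL4 driver and a UAS transgene on the second chromosome, which encodes a myc-tagged Dp110 (the catalytic subunit of the fly class I phosphoinositide 3-kinase) whose ATP binding domain is defective. FB-GAL4 flies carried the driver alone. Both groups were in the white Dahomey background, which is Wolbachia positive, and the flies had been allowed to mate. By the labels each sample pooled 5 flies, while the study's methods give a larger number. The endogenous Dp110 gene is intact in both groups, and no group carried the transgene without the driver.

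Turandot genes encode small secreted peptides. The fat body makes them and releases them into the haemolymph, and they are known for their induction by bacterial infection, heat, wounding and other stresses. In the fly their induction is known to need the JAK/STAT pathway, in which cytokines of the Unpaired group act through the receptor Domeless, the kinase Hopscotch and the transcription factor Stat92E. The MAP kinase kinase kinase Mekk1 and the NF-kappaB factor Relish have also been placed upstream of TotA. TotA is the founding member, and flies that overexpress it are known to survive heat for longer.

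Library totals ran from 22607341 to 36870161 counts. The gene that the transgene overexpresses, Pi3K92E (which encodes Dp110), had 20264, 42707 and 10089 counts in FB-Dp110DN against 2852, 2217 and 3012 in FB-GAL4, so that every FB-Dp110DN library lay above every FB-GAL4 library. Fat body markers (8 of 9 matched, Yp1 and apolpp among them) held 4.86% to 6.97% of counts in FB-Dp110DN and 2.61% to 7.05% in FB-GAL4, with no marker at 0 throughout. Replicate 3 stood apart in both groups, and some marker shares also differed between the groups. Muscle markers (14 of 15 matched, none at 0) took 3.53% of counts in the FB-Dp110DN library of that number and 2.43% in the FB-GAL4 library. In replicates 1 and 2 they took 0.906% and 0.969% in FB-Dp110DN, and 0.805% and 0.700% in FB-GAL4, so that FB-Dp110DN was the higher library in all 3 pairs. Ovary markers (11 of 13 matched, none at 0 throughout) took 0.297% to 0.454% in FB-Dp110DN and 0.467% to 0.524% in FB-GAL4, with no overlap. The part of these shares in the group differences below was not tested. Fat body markers summed together were lowest in replicate 3 of each group, at 4.86% in FB-Dp110DN and 2.61% in FB-GAL4. Not every marker followed the sum. Lsp2 had 1489, 5076 and 45440 counts in FB-Dp110DN and 3944, 2362 and 7651 in FB-GAL4, highest in replicate 3. In bulk libraries, fewer cells of a type and less RNA per cell cannot be told apart.

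TotA (FBgn0028396) and TotC (FBgn0044812) made up most of the family's transcripts. In FB-Dp110DN, TotA had 6014, 5343 and 35424 counts in replicates 1, 2 and 3, or a CPM of 265, 156 and 1204 (CPM scales counts to library size). In FB-GAL4 it had 2324, 1148 and 10026 counts, or 66.0, 46.6 and 313 CPM. TotA was thus higher in FB-Dp110DN within each same-numbered pair, yet the groups overlapped, since replicate 3 of FB-GAL4 lay above replicates 1 and 2 of FB-Dp110DN. The fold was 4.01, 3.34 and 3.85 in pairs 1, 2 and 3. The log2 difference averaged 1.90 ± 0.14 (SD, n = 3 pairs) and the fitted log2 fold change was 1.90 (SE 0.13).

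TotC, which lies 1 gene away from TotA on chromosome arm 3R, had the same order of libraries within each group. It had 3839, 2368 and 18276 counts in FB-Dp110DN (169, 69.1 and 621 CPM) and 897, 530 and 4155 counts in FB-GAL4 (25.5, 21.5 and 130 CPM). Here too replicate 3 was the highest library of its group, and replicate 3 of FB-GAL4 lay above replicate 2 of FB-Dp110DN. TotC was 6.62, 3.21 and 4.79 times as high in FB-Dp110DN in the 3 pairs. The log2 difference averaged 2.22 ± 0.52 over pairs (SD, n = 3), with a fitted value of 2.23 (SE 0.22).

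TotX (FBgn0044810) lay further along the same arm and was less abundant. It had 729, 513 and 1530 counts in FB-Dp110DN (32.1, 15.0 and 52.0 CPM) against 368, 166 and 512 counts in FB-GAL4 (10.5, 6.73 and 16.0 CPM). The groups overlapped narrowly, through replicate 2 of FB-Dp110DN and replicate 3 of FB-GAL4. In the pairs TotX was 3.06, 2.21 and 3.24 times as high in FB-Dp110DN, a mean log2 difference of 1.48 ± 0.30 (SD, n = 3 pairs). The fitted log2 fold change was 1.50 (SE 0.17). In the annotation TotX overlaps Grik, a glutamate receptor gene, whose own fitted log2 fold change was 0.35. Whether reads were counted by strand is not given, so reads of TotX and Grik may not be separable.

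TotM (FBgn0031701), on arm 2L, differed from the others. It had 795, 1399 and 1537 counts in FB-Dp110DN (35.0, 40.8 and 52.3 CPM), and 249, 160 and 1771 counts in FB-GAL4 (7.08, 6.49 and 55.3 CPM). Replicate 3 of FB-GAL4 thus held the highest TotM level of all 6 libraries. TotM was 4.91 and 6.24 times as high in FB-Dp110DN in pairs 1 and 2, but 0.945 times as high in pair 3. Its mean log2 difference of 1.62 ± 1.48 (SD, n = 3 pairs) was close to the spread between pairs. The fitted log2 fold change was 1.63 (SE 0.55) with the replicate number as a block and 0.89 without it, and 2.48 without replicate 3.

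**Figure D1:**
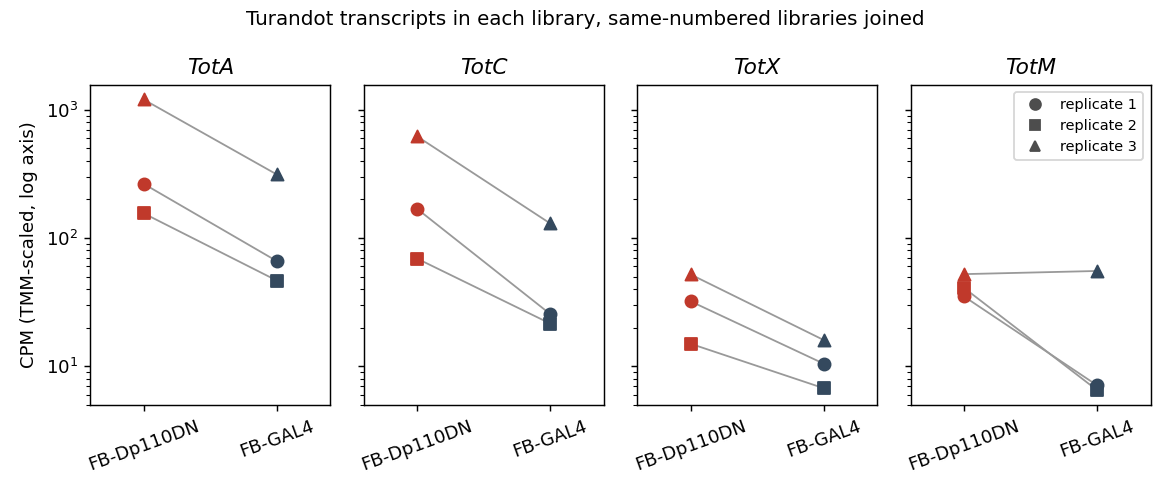
Expression of TotA, TotC, TotX and TotM in each library, in CPM on a log axis, with FB-Dp110DN to the left of FB-GAL4 in each panel. Each point is 1 library, marker shapes give the replicate number and grey lines join same-numbered libraries. FB-Dp110DN is the higher library in every pair of TotA, TotC and TotX (for TotA in replicate 3, 1204 CPM in FB-Dp110DN and 313 CPM in FB-GAL4), whereas TotM in replicate 3 is nearly level, at 52.3 CPM in FB-Dp110DN and 55.3 CPM in FB-GAL4.

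The other 4 members were at or near the limit of detection. TotB (FBgn0038838), which follows TotC directly on 3R, had 8, 6 and 9 counts in FB-Dp110DN libraries and 4, 0 and 13 in FB-GAL4 libraries. TotZ (FBgn0044809), the next gene, had 0, 4 and 0 counts in FB-Dp110DN and 0, 0 and 7 in FB-GAL4. With sums of 23 and 17 counts for TotB and 4 and 7 for TotZ, no difference between the groups was detectable at this depth. TotE (FBgn0053117) and TotF (FBgn0044811), adjacent on 2L and both within the span of the gene sick, had 0 counts in all 6 libraries. A count of 0 allows up to 3 counts, or between 0.0814 and 0.133 CPM by library. These CPM limits use plain library totals, not the scaled library sizes of the other CPM values. These limits cover counting error only, and PCR copies are not independent molecules.

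Of the 4 modelled members, 1 (TotA) was among the genes called by the edgeR quasi-likelihood test at an adjusted p-value under 0.05, where 3 of 10398 modelled genes (0.0289%) were called. DESeq2 called 3 of the 4 (TotA, TotC and TotX) among 993 genes. These counts are given for description, since the family was taken up on this contrast, and all 4 passed the filter in both groups, with at least 160 counts in every library. TotC had a larger fold change but more spread between pairs. TotA was not called without the replicate block, without replicate 1 or without replicate 2, fits in which 0 of all modelled genes were called. All 4 were called without replicate 3, where 862 of 10356 genes were. Ranked from the top by fitted log2 fold change, TotC was 13, TotA 20, TotM 32 and TotX 41 of 10398. In none of the 4 did all FB-Dp110DN libraries exceed all FB-GAL4 libraries, as they did for 11.6% of modelled genes.

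**Figure D2:**
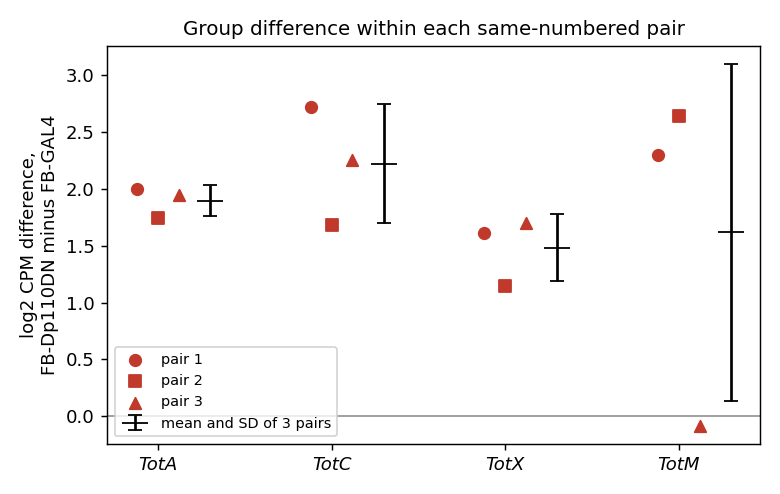
Difference of log2 CPM, FB-Dp110DN minus FB-GAL4, within each same-numbered pair for TotA, TotC, TotX and TotM. Red markers are the 3 pairs and black bars give their mean and SD. The pairs of TotA lie within 1.74 and 2.00, while TotM spans -0.08 to 2.64.

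Added together, the 8 genes held 501, 281 and 1930.4 CPM in FB-Dp110DN and 109, 81.3 and 515 CPM in FB-GAL4. This was 0.0261% to 0.168% of a library's counts in FB-Dp110DN and 0.00886% to 0.0577% in FB-GAL4. The family sum was 4.59, 3.46 and 3.75 times as high in FB-Dp110DN in pairs 1, 2 and 3. Its log2 ratio averaged 1.97 ± 0.21 (SD, n = 3 pairs), and 2.05 when TotA was left out of the sum. Most of the sum without TotA was TotC, whose group difference was also known beforehand, so this value was partly set by that choice.

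Levels of the members relative to each other were compared per kilobase of exon. The mean level in FB-Dp110DN was 936 ± 996 CPM per kilobase for TotA, 541 ± 555 for TotC, 77.3 ± 15.9 for TotM and 54.9 ± 30.8 for TotX (SD, n = 3). In FB-GAL4 these levels were 245 ± 257, 111 ± 116, 41.6 ± 50.8 and 18.4 ± 7.74 CPM per kilobase (SD, n = 3). TotA exceeded TotC in 6 of 6 libraries, and TotC exceeded TotM in 6 of 6. TotM exceeded TotX in 5 of 6, the exception being replicate 1 of FB-GAL4, with 12.8 against 17.4 CPM per kilobase. The SDs of neighbouring members overlapped in this order.

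By abundance, TotA was the 106th gene of the library in replicate 3 of FB-Dp110DN, and 580th and 1060th in replicates 1 and 2. In FB-GAL4 it ranked 442nd in replicate 3, and 2592nd and 3635th in replicates 1 and 2. TotA therefore belonged to the abundant transcripts of the library in replicate 3 of either group, and was further down in the other libraries. These ranks are over whole libraries, which also held muscle, gut and ovary markers.

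The mixture of family members also differed between libraries. TotA accounted for 52.8% to 62.4% of the family's CPM in FB-Dp110DN and 57.3% to 60.8% in FB-GAL4. The share of TotC was 24.6% to 33.7% in FB-Dp110DN and 23.3% to 26.4% in FB-GAL4. Together TotA and TotC thus left little to the rest. TotX had its lowest share in replicate 3 of both groups, 2.69% in FB-Dp110DN and 3.11% in FB-GAL4. Its share in replicates 1 and 2 was 5.33% to 6.40% in FB-Dp110DN and 8.28% to 9.58% in FB-GAL4. TotM held 14.5% of the family in replicate 2 of FB-Dp110DN and 10.7% in replicate 3 of FB-GAL4, but 2.71% in replicate 3 of FB-Dp110DN.

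The study's methods pair mutant and control samples by the day on which they were processed. The replicate number was taken as that day, which the sample titles do not give. The family was not chosen by its differences between replicate numbers. These were tested for each gene in the same edgeR quasi-likelihood model, with p-values adjusted over all modelled genes. Both tests share the residual spread of that model, so the calls between replicate numbers are not free of the choice. TotA, TotC and TotX differed between replicate numbers, 3 of 4 modelled members, where 2.39% of all modelled genes were called. For TotA the levels spanned 2.85 on the log2 scale, a 7.20-fold range (edgeR adjusted p = 0.00155). TotC spanned 2.86, a 7.28-fold range (edgeR adjusted p = 0.00854), and TotX 1.53, a 2.89-fold range (edgeR adjusted p = 0.0461). The range of TotM was 1.96, or 3.89-fold, and did not pass the test (edgeR adjusted p = 0.301). Over all modelled genes the median range was 0.28 on the log2 scale.

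The pattern over replicate numbers was alike in both groups for TotA, whose highest library exceeded the lowest 7.73-fold in FB-Dp110DN and 6.73-fold in FB-GAL4. For TotC these ranges were 8.99-fold and 6.04-fold, and for TotX 3.48-fold and 2.38-fold. For TotM the range was 1.49-fold in FB-Dp110DN but 8.52-fold in FB-GAL4. Whether these ranges differed between groups could not be tested with 1 library per group and replicate number.

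For TotA, TotC and TotM the replicate that stood furthest from the others was replicate 3, while TotX was low in replicate 2 as well. Relative to replicate 1, the fitted level in replicate 3 was higher by 2.21 (log2) for TotA, 2.09 for TotC, 1.96 for TotM and 0.66 for TotX. In replicate 2 it was -0.63, -0.77, 0.11 and -0.87 for the same genes. Without replicate 3, TotC was the only member called between replicates 1 and 2 (range 0.81, edgeR adjusted p = 0.0325), where 171 of 10356 genes were called. TotA gave 0.66 with an edgeR adjusted p of 0.154. The range of TotX was 0.90 without replicate 3 and 0.65 without replicate 2, and TotX was called in neither case. Replicate 3 also had the high muscle and low fat body marker shares given above. Gut markers (11 of 11 matched, none at 0 throughout) took 1.97%, 2.13% and 0.445% of counts in FB-Dp110DN, and 1.60%, 1.36% and 0.628% in FB-GAL4, lowest again in replicate 3. The part of tissue mixture in the Turandot levels of replicate 3 was not tested.

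Haemocytes are the known source of the cytokine that acts on the fat body after injury. Their markers (9 of 11 matched, Hml and NimC1 among them, none at 0 throughout) held 0.0489% to 0.0547% of counts in FB-Dp110DN and 0.0462% to 0.0557% in FB-GAL4, ranges that overlapped.

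**Figure D3:**
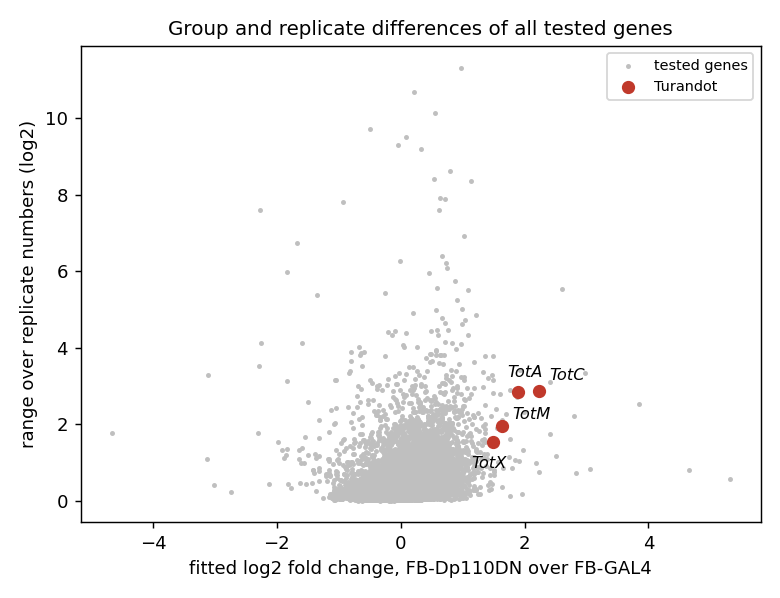
Fitted log2 fold change of FB-Dp110DN over FB-GAL4 (horizontal axis) against the range of fitted levels over the 3 replicate numbers in log2 units (vertical axis). Each grey point is 1 of 10398 modelled genes and red points are Turandot genes. TotA lies at 1.90 and 2.85, and TotC at 2.23 and 2.86. Their group difference was known when the family was taken up, so their horizontal position is a description. Ranked from the top by range over replicate numbers, TotC was 151 and TotA 154 of 10398.

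On the chromosome, TotA, TotC, TotB, TotZ and TotX lie in this order on 3R, in a stretch of 10 genes of the table, and TotM, TotF and TotE lie on 2L. Coordinates are not given because the counts rest on an older build than the annotation. The 12 modelled genes around the 3R members (all non-members between TotA and TotX and 5 on each side) were examined for a change of the whole stretch. In the edgeR test 0 of 12 were called in the group comparison, 2 had an unadjusted p-value under 0.05, and DESeq2 called 0. Their fitted log2 fold changes ran from 0.03 (Alp5, an alkaline phosphatase) to 1.21 (Ir93a, an ionotropic receptor), with a median of 0.34 against 0.04 over all modelled genes. All 12 were above 0, as were 53.6% of all modelled genes. Between replicate numbers edgeR and DESeq2 each called 0 of the 12. Their range over replicate numbers was 0.25 (Ktl) to 1.18 (Alp5) on the log2 scale, against 2.85 for TotA, 2.86 for TotC and 1.53 for TotX. Around TotM, 0 of 10 modelled neighbours were called by edgeR in the group comparison (4 at an unadjusted p-value under 0.05) and 3 by DESeq2, with log2 fold changes of -0.58 to 0.59 and a median of 0.41, where 8 of 10 were above 0. Over all 10398 modelled genes, edgeR gave 2717 an unadjusted p-value under 0.05 in the group comparison and DESeq2 called 993.

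The genes whose profile over the 6 libraries was most like that of TotA were found by the root mean square difference of centred log2 CPM. TotC was the nearest of 10397 genes, at 0.24 log2 units, while TotX was 29th at 0.72 and TotM 50th at 0.80. The median gene stood at 1.60. The group difference already known for TotA and TotC is part of this profile, so their nearness is partly set by that choice. The 5 nearest genes outside the family were DAT (the dopamine transporter) at 0.46, f (forked, an actin-bundling protein) at 0.55, prc (pericardin, a matrix protein of the heart) at 0.58, CG15506 at 0.59 and SkpB (a Skp1-related protein) at 0.59. All were far less abundant than TotA, with 2 to 76 counts for f and 62 to 925 for SkpB. Leaving out replicate 1, 2 or 3 kept only 2, 0 or 1 of these 5 genes among the nearest, so the genes listed after TotC changed with the libraries used.

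The JAK/STAT pathway, through which Turandot genes are known to be induced, was read next. Of 16 components listed, from the Unpaired ligands through dome and hop to negative regulators of the Socs group, 15 were matched and 13 modelled. In the edgeR group comparison 0 were called. An unadjusted p-value under 0.05 was found for 2, against 2717 of all 10398 modelled genes. DESeq2, which called 993 genes in all, called 1 component, et, with a fitted edgeR log2 fold change of 0.57. The median log2 fold change was -0.14, with 4 above 0 and 9 below. Stat92E, the transcription factor, had a fitted log2 fold change of 0.24 (edgeR adjusted p = 0.269), and Su(var)2-10, which encodes the PIAS inhibitor of Stat92E, had -0.61 (edgeR adjusted p = 0.153). Between replicate numbers, edgeR and DESeq2 each called 0 components, and 0 had an unadjusted p-value under 0.05. Without replicate 3, edgeR called 2 components, Socs36E and Su(var)2-10, among 862 of 10356 genes called. The summed CPM of the pathway was 1030.4 to 1091.4 in FB-Dp110DN and 1026.3 to 1192.7 in FB-GAL4, ranges that overlapped.

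The Unpaired ligand genes were scarce in these libraries. The cytokine gene upd3, the ligand through which haemocytes act on TotA, was the only 1 of 3 with enough reads to be modelled, and is described here although it was picked after its values were seen. It had 8, 78 and 9 counts in FB-Dp110DN and 11, 18 and 91 counts in FB-GAL4. Its high libraries were replicate 2 of FB-Dp110DN and replicate 3 of FB-GAL4, not the FB-Dp110DN library of replicate 3 in which TotA was highest. The fitted log2 fold change of upd3 was -0.42 (edgeR adjusted p = 0.776), with pair differences of 0.14, 1.56 and -2.96.

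Other genes known as JAK/STAT targets were set beside TotA. Of 5 listed, 4 were modelled, and edgeR called 0 (1 at an unadjusted p-value under 0.05), as did DESeq2. Socs36E, the feedback inhibitor of the pathway, had 830, 1360 and 436 counts in FB-Dp110DN and 753, 312 and 1118 in FB-GAL4. Its log2 difference was 0.77, 1.64 and -1.23 in the 3 pairs, so that replicate 3 went the other way from replicates 1 and 2. The antiviral gene vir-1 had a fitted log2 fold change of 0.21 (edgeR adjusted p = 0.486), and Listericin, an antibacterial peptide gene, had -0.86 (edgeR adjusted p = 0.160). Between replicate numbers edgeR called 0 of the 4, with 0 at an unadjusted p-value under 0.05, and DESeq2 called 0. Without replicate 3, edgeR called 1 of the list, Socs36E, among 862 of 10356 genes called.

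The stress MAP kinase arm, which holds Mekk1, was tested in the same way. Of 14 modelled genes edgeR called 0 in the group comparison, and DESeq2 called 0. An unadjusted p-value under 0.05 was found for 3, against 2717 of all 10398 modelled genes. The median log2 fold change of the list was -0.12. The p38 kinase kinase lic had -0.44 (edgeR adjusted p = 0.153), kay, which encodes the Fos subunit of AP-1, had 0.43 (edgeR adjusted p = 0.156), and the JNK pathway kinase slpr had -0.41 (edgeR adjusted p = 0.188). Between replicate numbers edgeR called 0, with 0 at an unadjusted p-value under 0.05, and DESeq2 called 0.

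Among the NF-kappaB pathways, the Imd list had 13 modelled genes. For this list edgeR called 0 (1 at an unadjusted p-value under 0.05) and DESeq2 called 0, with a median log2 fold change of -0.03. Rel, which encodes Relish, stood at 0.03 (edgeR adjusted p = 0.967), with pair differences of 0.42, 0.69 and -1.07, and akirin, a nuclear cofactor of Relish, at -0.35 (edgeR adjusted p = 0.180). Without replicate 3, edgeR called 1 Imd gene, pirk, an inhibitor of the pathway, among 862 of 10356 genes called. The Toll list had 10 modelled genes. Again edgeR called 0 (1 at an unadjusted p-value under 0.05) and DESeq2 called 0, with a median of -0.07. The adaptor gene Myd88 stood at 0.39 (edgeR adjusted p = 0.154), the serpin gene nec at 0.28 (edgeR adjusted p = 0.455) and cact, the inhibitor of Dif and Dorsal, at -0.23 (edgeR adjusted p = 0.311). In neither list did edgeR or DESeq2 call a gene between replicate numbers, and 0 had an unadjusted p-value under 0.05.

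Antimicrobial peptides, the other secreted humoral products of the fat body, had a library pattern unlike that of TotA. Their summed level was 115, 1366.1 and 244 CPM in FB-Dp110DN and 176, 169 and 3840.0 CPM in FB-GAL4. The high libraries were thus replicate 2 of FB-Dp110DN and replicate 3 of FB-GAL4, while TotA was highest in replicate 3 of FB-Dp110DN, where the peptides were low. Of 14 modelled peptide genes edgeR called 0 in the group comparison (1 at an unadjusted p-value under 0.05) and DESeq2 called 0. All 14 had estimates below 0, with a median log2 fold change of -0.82. Without replicate 3 the median was 1.24 and edgeR called 7, among 862 of 10356 genes called. The median was -2.83 without replicate 2 and -1.83 without the block. In pairs 1, 2 and 3 the difference was below 0 for 13, 1 and 14 of the 14 genes, so that pair 2 went the other way from pairs 1 and 3. The peptide gene CecA2, of smallest p-value, had 2, 12 and 6 counts in FB-Dp110DN and 21, 6 and 255 in FB-GAL4. The genes of highest count, AttC and Dro, had log2 fold changes of -0.49 and -0.14 (edgeR adjusted p = 0.835 and 0.968).

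TotM, unlike TotA, was highest in the library with the most antimicrobial peptide transcripts, replicate 3 of FB-GAL4, at 55.3 CPM. TotM was nearly as high, at 52.3 CPM, in replicate 3 of FB-Dp110DN, where the peptides summed to 244 CPM. In replicate 2 of FB-Dp110DN, the other library rich in peptides, TotM stood at 40.8 CPM, between replicates 1 and 3 of its group. The part of immune activation in single libraries was not tested. Between replicate numbers the peptide genes had a median range of 3.60 on the log2 scale. Of the 14, edgeR called 0 (5 at an unadjusted p-value under 0.05) and DESeq2 called 1, among 935 genes in all. The high libraries of the peptides had different replicate numbers in the groups, whereas those of TotA and TotC had the same number.

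Heat shock genes, which answer to heat through the factor Hsf, were set beside the family as well. Their summed level was 2948.5 to 3503.7 CPM in FB-Dp110DN and 3213.0 to 3771.3 CPM in FB-GAL4, of which Hsp83 alone held 1951.6 to 2462.2 CPM in FB-Dp110DN and 2057.8 to 2418.7 CPM in FB-GAL4. Of 14 modelled genes edgeR called 0 in the group comparison, with 6 at an unadjusted p-value under 0.05 (2717 of all 10398 genes). DESeq2 called 3, among 993 genes, namely the small chaperone genes Hsp23, Hsp26 and Hsp27, all with lower estimates in FB-Dp110DN. Hsp27 had a fitted log2 fold change of -0.90 and Hsp26 of -0.83, with an edgeR adjusted p of 0.153 for each. The abundant chaperone gene Hsp83 stood at -0.01 (edgeR adjusted p = 0.986). The list ran from -1.05 to 1.88 (Hsp70Bb), with a median of -0.06. Without replicate 3 edgeR called 4 heat shock genes, among 862 of 10356 genes called. Between replicate numbers edgeR called 0 (5 at an unadjusted p-value under 0.05) and DESeq2 called 2, among 935 genes in all. Single heat shock genes varied more than the sum. The heat-induced chaperone genes Hsp70Bb, Hsp70Bbb and Hsp70Bc, named after their values were seen, had ranges over replicate numbers of 2.72, 2.99 and 2.86 on the log2 scale (edgeR adjusted p = 0.167, 0.195 and 0.112), close to the 2.85 of TotA. Their fitted level was lowest in replicate 3, where that of TotA was highest. Hsp70 genes are near-identical copies, so reads may be shared among them.

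**Figure D4:**
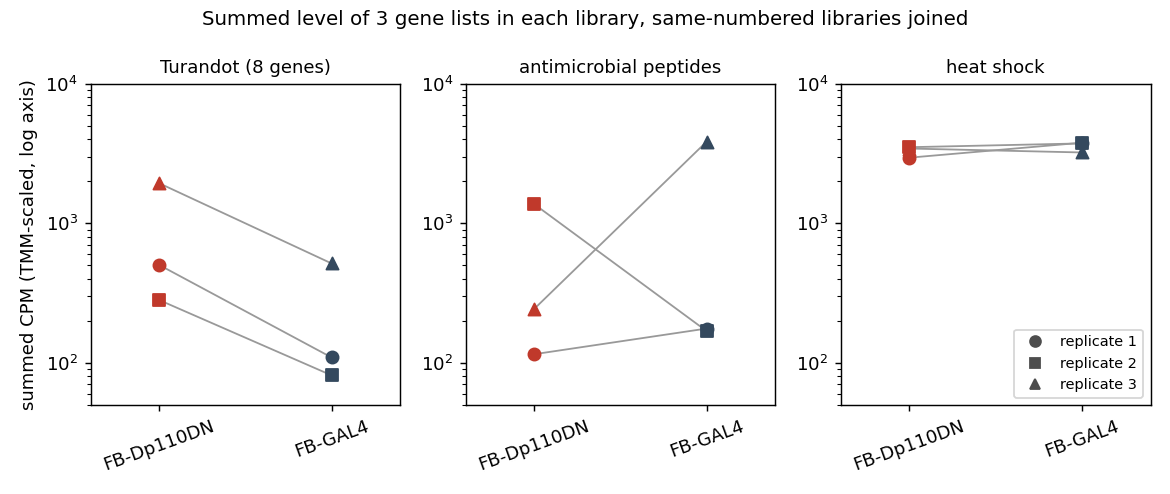
Summed CPM (log axis) of the 8 Turandot genes, the antimicrobial peptide genes and the heat shock genes in each library, with FB-Dp110DN left of FB-GAL4. Marker shapes give the replicate number and grey lines join same-numbered libraries. Turandot lines run nearly parallel (in replicate 3, 1930.4 CPM in FB-Dp110DN and 515 CPM in FB-GAL4), whereas the peptide lines cross (in replicate 3, 244 CPM in FB-Dp110DN and 3840.0 CPM in FB-GAL4) and the heat shock sums, mostly Hsp83, stay between 2948.5 and 3771.3 CPM.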

How the data were processed

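Per the labels and the study's methods, paired-end reads were aligned by the authors with TopHat2 2.0.11 to the fly genome BDGP5 and counted per gene with HTSeq, whose version and strand setting are not given in the sources used here. The authors deposited raw counts per gene without normalization in 1 table. Its 6 columns of the authors' own DESeq2 comparison (mean, fold change, error, statistic and p-values) were not used. Columns were assigned by the group and replicate number in the sample titles. For control replicates 2 and 3, which GEO describes alike, only the titles tell the numbers apart.

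Tests used edgeR 4.0.16 under R 4.3.3 (glmQLFit with legacy off, quasi-likelihood F), after filterByExpr and TMM scaling, in a model with the group and the replicate number. The number was taken as the processing day by which the study's methods pair mutant and control samples. Deviations from the group means correlated at 0.42, 0.19 and 0.59 across genes between libraries numbered 1, 2 and 3, against 0.38 (FB-Dp110DN 1 with FB-GAL4 2) and 0.22 (FB-Dp110DN 2 with FB-GAL4 1) across those numbers and below 0 between replicate 3 and the others. Deviations sum to 0 within each group, so the values below 0 follow in part from the 0.59 and add little to it. The 0.59 set replicate 3 apart as a pair, while the correlations did not set replicates 1 and 2 apart from each other. Benjamini-Hochberg adjusted p-values under 0.05 were calls. Standard errors were the absolute log2 fold change over the root of F. A prior count of 2 was used for log2 CPM. P-values measure the spread left between these samples, which the methods call biological repeats, once group and replicate number are fitted. Each replicate number held 1 library per group, so spread within a number and group was not measured. DESeq2 1.42.0 was run as an alternative, on the same genes. Scripts were tested on simulated data. Exonic lengths, arms and gene order came from the later build BDGP6, and gene symbols from its name table (85 of 90 list symbols matched). Sequences were not analysed here.

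The members and lists were chosen with earlier results of these data known. Named genes are the 8 members, Pi3K92E, the 5 genes nearest to TotA, and from each list the called genes or, with none called, the 2 of highest count and the 1 of smallest p-value. Neighbouring genes, upd3, Lsp2, 3 Hsp70 genes, and genes called by DESeq2 alone or without a replicate were named after their values were seen.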

Additional observations from a re-analysis of the deposited data

How the results depend on the processing

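The log2 fold changes of TotA, TotC, TotM and TotX kept their sign and stayed within the SD of their pairs in all 32 combinations of gene and alternative. The family log2 ratio was 1.75 with plain library totals in place of TMM, and 1.85 to 2.05 when a replicate number was left out. The count of genes called between the groups was 3, against 0 without the replicate block, 993 under DESeq2, 5 without a filter, 6 at an adjusted p under 0.1 and 0 to 862 when a replicate number was left out, the highest without replicate 3. No member was called in the group comparison without the block, and no list count changed. Among genes at an unadjusted p under 0.05, 52.3% were higher in FB-Dp110DN with the block and 36.4% without it. Between replicate numbers DESeq2 called 935 genes against 248, with TotA, TotC and TotX among both. Leaving out a replicate number left 1 to 2 members called, where 169 to 215 of all modelled genes were called. TotX was not called in any of these fits (edgeR adjusted p from 0.0568 to 0.115). Under DESeq2 the group calls were 1 among JAK/STAT components and 3 among heat shock genes. Leaving out a replicate number gave 0 to 2 calls among JAK/STAT components, 0 to 1 among their targets, 0 to 1 in the Imd list, 0 to 7 among antimicrobial peptides and 0 to 4 among heat shock genes, and kept 0 to 2 of the 5 genes nearest to TotA; each list count above 0 in these lists came without replicate 3. The cause of these shifts was not tested. The protein and promoter comparison was not run.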
